A study of Mus musculus with 9 samples.

Results

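The degeneration of the rd10 retina was described by comparing retinas of saline-treated rd10 mice with retinas of wild-type (WT) mice, which together make up 6 of the 9 libraries of the series. Members were chosen by their labels alone: the 3 libraries labelled WT and the 3 labelled NS, at postnatal day 28 (P28). WT mice were C57BL/6J animals from the Guangdong Medical Lab Animal Center and were not treated. The rd10 mice, which carry a mutation in Pde6b and came from the Jackson Laboratory, received 1 μl of normal saline (NS) in both eyes at P14 and again at P21, and served as the vehicle group for a vesicle treatment that is not described here. The sources differ on the route: the treatment description and the methods section of the study call the injection into the eyes intravenous, whereas the growth description and other parts of the study place it in the vitreous. Genotype, source of the animals and injection therefore changed together and cannot be told apart in this comparison. Neither the sex of the mice nor the number of animals per library is given. The study counts either animals or retinas as n, and the labels do not say whether the 3 replicates of a group came from separate animals, so the p-values measure only the spread between these libraries.

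Rods detect light through a cascade in which an absorbed photon leads to activation of the G protein transducin, which in turn switches on phosphodiesterase 6 (PDE6), the enzyme that hydrolyses cGMP and so lets the cation channels of the outer segment close. Pde6b encodes the beta subunit of this enzyme, and in rd10 mice its defect leads to death of the rods first and of the cones later, while bipolar, amacrine and ganglion cells outlast them. Müller glia and microglia are known to react to photoreceptor loss, the first by gliosis and the second by proliferation and phagocytosis of dying cells.

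The WT libraries held 24155027, 23966614 and 21719248 estimated counts and the NS-treated rd10 libraries 28545619, 19491717 and 20762670, so that 1 count was worth between 0.0335 and 0.0491 CPM (counts per 1000000 counts of the library). Levels are given in CPM after TMM scaling, each group as mean ± SD of 3 libraries, and fold changes are NS-treated rd10 against WT on the log2 scale with their standard error (SE) and the Benjamini-Hochberg adjusted p of edgeR's quasi-likelihood test. The 10 most abundant genes took 11.4% to 11.7% of the counts in WT and 7.54% to 7.98% in NS-treated rd10. The most abundant gene of every NS-treated rd10 library was the mitochondrial gene mt-Co1 with 2.12% to 2.36% of the counts. Libraries of the NS-treated group differed more from each other than WT libraries did: chi-square divided by its degrees of freedom was 9.17 to 14.1 for their pairs and 3.99 to 5.67 for pairs of WT. Within the groups 3 libraries stood apart: WT replicate 2 was the highest for lens crystallins, NS replicate 1 was the highest for interferon-stimulated, pigment epithelium and fibroblast genes, and NS replicate 2 lay apart on the second principal component of log2 CPM (-17.6 against 12.5 and 4.46 for the other NS-treated libraries), was the highest for Lcn2, Crym, Lif and Edn2 and the lowest for pigment epithelium genes. The first component, which separated the groups, took 86.8% of the variance and the second 4.9%. Lists that these libraries decide are given below with and without them.

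Differentially expressed genes were those with an adjusted p below 0.05 whose log2 fold change was 1 or more in either direction, and "rose" and "fell" are used only of them. Members of KEGG pathways counted as higher or lower are differentially expressed genes too. Of the 14644 genes tested, 12.7% were differentially expressed, 9.16% higher in NS-treated rd10 and 3.56% lower, and WT and NS-treated libraries did not overlap for 67.1%. All counts of list members below are to be read beside these shares. The median log2 fold change over all genes tested was 0.01. The rises were also the larger changes: 302 genes rose and 12 fell by 3 or more on the log2 scale, and 134 rose and 4 fell by 4 or more. Among all rising genes 84 never exceeded 3 counts in a WT library, and among all falling genes 3 never exceeded 3 counts in an NS-treated library. The log2 fold changes of these genes are fitted and are not bounds. The balance of rising and falling genes depended on the scaling. When the libraries were scaled on the bipolar, amacrine and ganglion cell genes listed below, the median of all genes moved by -0.24, from 0.01 to -0.23, 1055 genes were higher and 933 lower, and the share of higher genes among those differentially expressed went from 72.0% to 53.1%.

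Pde6b (chromosome 5, 108388391 to 108432397, plus strand, GRCm38) was expressed at 2449, 2385 and 2554 CPM in the WT libraries and at 532, 604.8 and 439.1 CPM in NS-treated rd10. Its level in NS-treated rd10 was 21.3% of that in WT (log2 fold change -2.23, SE 0.10, adjusted p = 3.02e-08). The rd10 allele changes an amino acid of the protein, so this level describes the tissue and does not check the label of the libraries. In bulk RNA, fewer cells of a type and less RNA per cell cannot be told apart, which holds for every cell class below.

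The rod phototransduction genes fell together. Of 22 members tested, 21 fell and none rose, where 3.56% of all genes tested fell, with a median log2 fold change of -1.80. WT and NS-treated libraries were separate for every member, as they were for 67.1% of all genes tested. Their summed expression was 96600, 92120 and 97560 CPM in WT and 23830, 27190 and 19350 CPM in NS-treated rd10, or 9.54% of all counts against 2.35%. Gnat1, the rod transducin alpha subunit, went from 14940, 14640 and 15980 CPM to 3643, 3924 and 2858 CPM (log2 fold change -2.13, SE 0.11, adjusted p = 2.15e-08). Guca1b, which activates guanylate cyclase to restore cGMP, had the largest fall of the list, from 1031, 1023 and 1097 CPM to 169.7, 223.5 and 146.2 CPM (-2.55, SE 0.15, adjusted p = 2.44e-06). In Pde6b, Gnat1 and Guca1b NS replicate 3 was the lowest library and NS replicate 2 the highest.

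The members of the cascade were not reduced to one common level, but ranged from 17.1% of WT in Guca1b to 58.5% in Gnb5. Gnb1, the transducin beta subunit, was at 6115 ± 148 CPM in WT and 1769 ± 262 CPM in NS-treated rd10 (-1.79, adjusted p = 3.02e-08, edgeR, n = 3). Pde6a, the alpha subunit of the same enzyme as Pde6b, fell by 1.67 on the log2 scale and Grk1, a kinase of the recovery phase, by 1.82. Sag, the rod arrestin, was reduced less than these, with 4661 ± 344 CPM in WT and 2085 ± 253 CPM in NS-treated rd10, or 44.7% (-1.16, adjusted p = 6.31e-07, edgeR, n = 3). Gnb5, which works with the GTPase-activating complex that switches transducin off and is also found in other neurons, was the member that did not pass the fold threshold (-0.77, adjusted p = 3.24e-07).

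Transcription of rod genes is driven by the homeodomain factor CRX together with NRL, and CRX and OTX factors bind the letters TAATCC. A window from 250 bases before to 50 bases after the start was at hand for 14 of the 22 rod genes in the RefSeq annotation of GRCm38.p6. Stretches of 30 bases are shown for the 3 of them with the highest length-normalised level (FPKM) in WT that fell and hold this motif on either strand, as examples of where the motif lies. Of the 14 windows 8 held it. The sequences run 5′ to 3′ on the strand of the gene, and capitals mark GGATTA, which is TAATCC on the other strand.
Sag, chr1:87803581-87803610, plus strand: taaagaggtttaGGATTAaaaaaaaaaaaa
Guca1a, chr17:47400646-47400675, minus strand: cctgttaagaagGGATTAgcagactgcaaa
Gngt1, chr6:3993952-3993981, plus strand: tcatattaggggGGATTAtgaagaagcttt
The motif ends 82, 52 and 39 bases before the start in Sag, Guca1a and Gngt1. It was found in 7.06% of all 32851 windows. A comparison of rod or falling genes with all genes tested was void, because windows were at hand for 63.6% of the rod list and 78.7% of all genes tested.

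Of 14 photoreceptor transcription factors, 6 fell, 8 were not differentially expressed and none rose (median -0.86). Nrl, the leucine zipper factor that sets rod fate, went from 1822, 1762 and 1831 CPM to 370.5, 432.9 and 309.2 CPM (-2.28, SE 0.11, adjusted p = 4.33e-08), and so to 20.5% of WT. Esrrb, an orphan nuclear receptor of rods, was at 709.6, 699.6 and 730.5 CPM in WT and at 159, 208.4 and 104.1 CPM in NS-treated rd10 (-2.18). Mef2c (-2.20), Samd11 (-1.65), Prdm1 (-1.45) and Crx (-1.18) completed the factors that fell. Nr2e3, which represses cone genes in rods, was at 51.5% of WT and missed the fold threshold by little (-0.96, adjusted p = 5.49e-07). Otx2 (-0.26), which bipolar cells also express, and the cone factors Thrb (-0.09, adjusted p = 0.31) and Rxrg (0.23) did not pass it.

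Of 22 structural genes of the outer segment and the surrounding matrix, 16 fell and none rose, with a median of -1.52. Prph2, the tetraspanin that shapes the disc rims, was at 5060, 4961 and 5118 CPM in WT and 1197, 1453 and 999.7 CPM in NS-treated rd10 (-2.05, SE 0.12, adjusted p = 1.97e-07). Its partner Rom1 (-1.77) and the flippase Abca4 (-1.83), which clears retinal from the discs, fell to a similar extent. Rbp3, the retinoid carrier of the matrix, went from 6592 ± 306 to 3052 ± 467 CPM (-1.11). Impg2, a proteoglycan of that matrix, had a log2 fold change of -0.39.

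Among 26 genes of the photoreceptor cilium and of transport through it, 8 fell and none rose (median -0.76), where 3.56% of all genes tested fell. Rpgrip1 (-1.47), a scaffold of the connecting cilium, was among those that fell. In the ribbon synapse, 10 of 22 members fell (median -0.90), against the same 3.56% of all genes tested. That count was 6 when NS replicate 3 was left out and 7 without WT replicate 3. Cabp4, the calcium sensor of the photoreceptor terminal, went from 169.5, 175.2 and 181.7 CPM to 53.17, 61.73 and 44.29 CPM (-1.73, SE 0.10, adjusted p = 2.16e-07). Slc17a7, the vesicular glutamate transporter, went from 2103, 1996 and 2087 CPM to 924.3, 899 and 847.7 CPM (-1.21). Cplx3 (0.23) and Ctbp2 (-0.37), which inner neurons also express, stayed under the fold threshold.

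Of 15 members of the visual cycle list, which mixes photoreceptor, Müller glia and pigment epithelium enzymes, 1 rose and 2 fell (median 0.46), where 9.16% of all genes tested rose and 3.56% fell. Rdh12 (510.6 ± 23.3 to 135.1 ± 15.4 CPM, -1.92) and Rdh8 (-1.35), the dehydrogenases that reduce all-trans retinal in photoreceptors, fell. Without NS replicate 2, which had the lowest pigment epithelium signal of its group, 6 members rose.

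No member of the cone phototransduction list was differentially expressed. Of its 12 members none fell or rose at these thresholds, where 9.16% of all genes tested rose and 3.56% fell. In so short a list a count of 0 is near these shares. The members summed to 1882, 1868 and 2091 CPM in WT against 1907, 1917 and 1840 CPM in NS-treated rd10. This overlap rested on Gnb3: without it the list summed to 1628, 1618 and 1820 CPM in WT and to 1483, 1338 and 1397 CPM in NS-treated rd10, or 0.833 of WT with no overlap. Within the list the members went in both directions. Opn1sw, the short-wavelength opsin, was at 571.3, 611 and 653.5 CPM in WT and 419.7, 408.4 and 403.7 CPM in NS-treated rd10, or 67.1% (-0.58, SE 0.06, adjusted p = 6.19e-06). Opn1mw, the medium-wavelength opsin, was at 225.1, 177.1 and 244.3 CPM in WT and 174.4, 122.7 and 157.3 CPM in NS-treated rd10 (-0.51, SE 0.17, adjusted p = 0.0374). The groups did not overlap for either opsin.

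Arr3, the cone arrestin, was lowest in NS replicate 2, at 41.81 CPM against 73.96 and 82.38 CPM in the other two libraries and 94.22, 95.66 and 106.9 CPM in WT (-0.58, adjusted p = 0.122). Gnat2, the cone transducin alpha subunit, had a log2 fold change of -0.37. The cone phosphodiesterase Pde6c (0.40) and the cone channel subunit Cngb3 (0.35) were slightly higher. Gnb3, a transducin beta subunit that ON bipolar cells express as well as cones, was 1.87 times the WT level (254.1, 250.6 and 270.6 CPM to 424, 579.8 and 442.9 CPM, 0.90, adjusted p = 6.95e-05). The median of the list was 0.07, and it was -0.17 with scaling on inner retinal genes and -0.03 without NS replicate 1, so it had no stable sign.

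**Figure D1:**
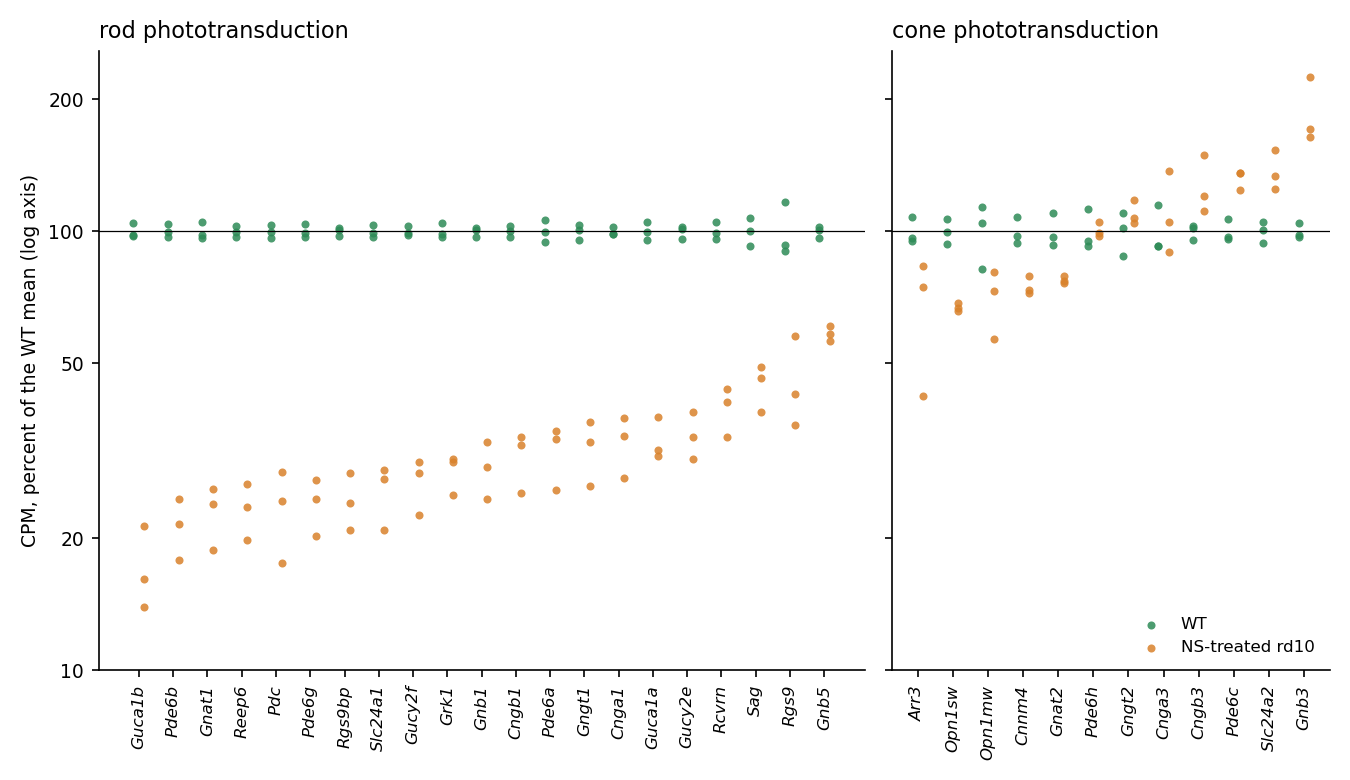
CPM of genes of the rod (left) and cone (right) phototransduction lists in each of the 3 WT and 3 NS-treated rd10 libraries, as a percent of the gene's WT mean on a log axis, with genes ordered by log2 fold change and 21 of the 22 rod genes drawn. Rod genes lie between 17.1% and 58.5% of WT on average with no overlap of the groups, whereas cone genes lie on both sides of 100%. The groups did not overlap for 67.1% of all genes tested.

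The inner neurons showed no differential expression in their identity lists. None of the 11 genes of the ON bipolar mGluR6 complex (median 0.22), 18 of bipolar cell identity (0.19), 8 of horizontal cells (0.26), 20 of amacrine cells (0.26) and 20 of retinal ganglion cells (0.40) passed both thresholds. Over all genes tested 12.7% passed both, and each of these lists is short. The sums of these lists went in both directions. Bipolar identity genes summed to 1650, 1615 and 1607 CPM in WT and 1747, 1638 and 1837 CPM in NS-treated rd10, amacrine genes to 2499, 2457 and 2382 against 2952, 2783 and 3051 CPM, and ganglion cell genes to 1921, 1757 and 1494 against 2109, 1872 and 2101 CPM. The groups overlapped for bipolar and ganglion cells and not for amacrine cells. The ON bipolar mGluR6 complex summed to 2396, 2297 and 2383 CPM in WT and to 2146, 2063 and 2194 CPM in NS-treated rd10, lower without overlap although its median was above 0. Of its 11 members 7 had a log2 fold change above 0. The member with the highest FPKM was Gnb5, which also stands in the rod list and was at 58.5% of WT. The sum was not taken without Gnb5, so it does not describe ON bipolar cells alone. With scaling on the bipolar, amacrine and ganglion cell genes themselves, the medians of the ON bipolar and bipolar identity lists changed sign, to -0.02 and -0.05.

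Single members gave a finer picture. Grm6, the glutamate receptor by which ON bipolar cells read photoreceptor release, was at 114.9, 113.2 and 129.4 CPM in WT and at 137, 137.6 and 164.3 CPM in NS-treated rd10 (0.30, adjusted p = 0.00671), and its channel Trpm1 had a log2 fold change of 0.37. Lrit3, an adhesion protein that organises this synapse, was lower (-0.86) and so was Ric8b (-0.99), both just under the fold threshold. Pax6, a factor of amacrine and ganglion cells, was at 280.6, 281.3 and 276.7 CPM in WT and at 397.3, 414.2 and 424.1 CPM in NS-treated rd10 (0.56, adjusted p = 2.1e-06). Rbpms, a marker of ganglion cells, was at 54.85, 53.91 and 43.88 CPM in WT and at 88.09, 69.57 and 79.65 CPM in NS-treated rd10 (0.64, adjusted p = 0.00034). Neither group of libraries overlapped for Pax6 or Rbpms, and both genes stayed under the fold threshold.

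None of 21 glutamate receptor genes was differentially expressed, where 12.7% of all genes tested were. However, 20 of them had a log2 fold change above 0 (median 0.42), and they summed to 719.9, 730 and 687.6 CPM in WT and to 994.1, 916.8 and 1008 CPM in NS-treated rd10, without overlap. The GABA and glycine receptor genes summed to 1440, 1382 and 1319 CPM in WT and to 1822, 1631 and 1831 CPM in NS-treated rd10, also without overlap and with 22 of 23 above 0. Of 23 GABA and glycine receptor genes (median 0.35), where 9.16% of all genes tested rose, Gabrg3, a GABA-A receptor gamma subunit, was the one that rose (12.25 ± 1.15 to 28.77 ± 2.86 CPM, 1.23, adjusted p = 7.96e-07, edgeR, n = 3). Of 13 retinal neuropeptide genes tested, 2 rose, namely Penk, which encodes the enkephalin precursor (1.60), and Gal, which encodes galanin (1.91, adjusted p = 0.0011), and the median of the list was 0.18. The share of all genes tested that rose, 9.16%, lies between the shares of these 2 lists. The neuropeptide median was -0.06 with scaling on inner retinal genes.

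**Figure D2:**
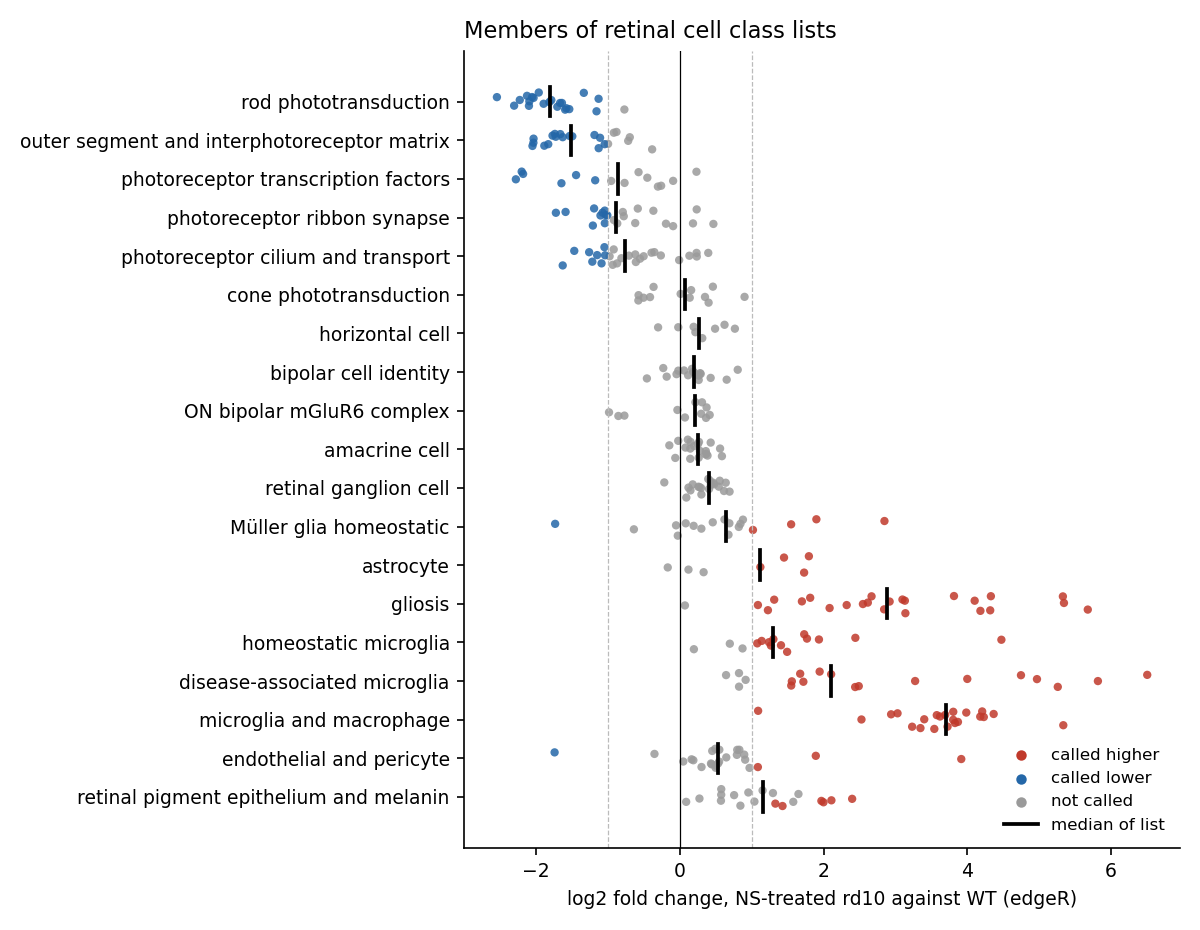
Log2 fold change of every tested member of 19 cell class lists, NS-treated rd10 against WT, where a point is a gene, its colour marks whether it was differentially expressed and in which direction, and a black bar is the median of the list. Rod and outer segment genes lie to the left, inner neuron lists around 0, and gliosis and microglia lists to the right, where the values of genes at the floor in WT, such as Cst7 and Itgax, are fitted and are not bounds.

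Müller glia span the retina and maintain its ions, glutamate and retinoids. Of 18 homeostatic Müller genes 4 rose and 1 fell (median 0.65), where 9.16% of all genes tested rose and 3.56% fell. Glul, the glutamine synthetase, was at 2744, 2770 and 2557 CPM in WT and at 3054, 2060 and 2793 CPM in NS-treated rd10 (-0.03, adjusted p = 0.853), with overlapping groups. Sox9, a transcription factor of these cells, rose from 12.51, 13.27 and 14.43 CPM to 54.28, 48.69 and 46.75 CPM (1.90, SE 0.09, adjusted p = 6.71e-09). Crym, a thyroid hormone-binding protein, rose from 38.14, 39.49 and 33.96 CPM to 190, 404 and 210.9 CPM, with NS replicate 2 far above the other libraries (2.85, SE 0.38, adjusted p = 0.00293). Cd9 (1.55) and the water channel Aqp4 (1.02, or 0.99, 0.99 and 0.96 without WT replicate 1, WT replicate 3 or NS replicate 1) also rose, and Hes5, a Notch target, fell from 2.21, 3.317 and 3.141 CPM to 1.138, 0.8661 and 0.5358 CPM (-1.74).

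Gliosis genes rose almost without exception. Of 24 members 23 rose, the exception being Tm4sf1 (0.07), where 9.16% of all genes tested rose, and the median was 2.88. They summed to 614.6, 613.2 and 583.4 CPM in WT and to 3389, 3900 and 3188 CPM in NS-treated rd10, or 5.78 times as much. Gfap, the intermediate filament that marks reactive glia, rose from 48.92, 42.23 and 47.31 CPM to 204.1, 373.7 and 302.9 CPM (2.67, SE 0.26, adjusted p = 0.000532). Serpina3n, a serine protease inhibitor, rose 40.2-fold from 11.93, 10.53 and 12.12 CPM to 509.9, 450.6 and 429.7 CPM (5.33, SE 0.09, adjusted p = 2.77e-12). Lcn2, the iron-siderophore carrier lipocalin 2, rose 40.9-fold, from 6.055, 6.059 and 5.055 CPM to 188.2, 382.3 and 131.2 CPM, and was much more variable between the NS-treated libraries (5.35, SE 0.61, adjusted p = 0.00194). Vim, another intermediate filament, rose by less (1.31). Without NS replicate 2, 23 members of the gliosis list rose (median 2.94), and the log2 fold change of Lcn2 was 4.80. Of 7 astrocyte genes 4 rose (median 1.12).

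Windows before the start were at hand for 19 of the 24 gliosis genes. The motifs searched on both strands were CRX/OTX (TAATCC), NRL (TGCTGA), AP-1 (TGANTCA), ISRE (GAAA, any 2 bases, GAAA), STAT (TTCNNNGAA), PU.1 (GAGGAAG), NF-kB (GGGA, any 2 bases, TTCC) and a loose form of the CArG box (CC, any 6 bases, GG), which does not require A or T inside as the box itself does. Stretches are shown for the 3 rising genes with the highest FPKM in NS-treated rd10 that hold any of them, with the matching letters in capitals.
Lcn2, chr2:32387743-32387772, minus strand, PU.1 on the other strand: tcactctctgctCTTCCTCctccagcacac
Serpina3n, chr12:104406664-104406693, plus strand, CC and GG with 6 bases between: agggaggagcCCTTGATGGGaataaatagg
Cp, chr3:19956865-19956894, plus strand, AP-1: caatgacatattTGATTCAtttttccttgg
The matches end 15, 25 and 171 bases before the start in Lcn2, Serpina3n and Cp. Such matches are common, as 13.6% of all windows hold the PU.1 letters, 73.3% the loose CC and GG pattern and 7.81% AP-1, and a match is a description and not a binding site.

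In the survival list of LIF, endothelin 2 and neurotrophic factors, 9 of 23 members rose and 1 fell (median 0.61), where 9.16% of all genes tested rose and 3.56% fell. Lif, the cytokine that damaged retina releases, rose from 0.4861, 0.6191 and 0.7852 CPM to 9.107, 16.84 and 6.563 CPM (4.09, SE 0.43, adjusted p = 5.69e-05). Edn2, endothelin 2, rose from 6.85, 8.491 and 8.441 CPM to 25.28, 59.47 and 34.78 CPM (2.32, SE 0.39, adjusted p = 0.00449), and NS replicate 2 was the highest for both. Fgf2, which acts on photoreceptor survival, rose from 53.43, 48.6 and 46.87 CPM to 198.3, 245.4 and 188 CPM (2.08, SE 0.10, adjusted p = 5.85e-08).

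Socs3, the feedback inhibitor of STAT3 signalling, went from 2.873, 3.936 and 4.172 CPM to 67.3, 60.67 and 70.9 CPM (4.18, SE 0.12, adjusted p = 2.69e-10), and Stat3 itself rose by 1.70 on the log2 scale. The cytokine Clcf1 (2.73), the neurotrophin Ntf3 (2.90), and the receptors Fgfr1 (1.3) and Ednrb (1.09, or 0.98 and 0.94 without NS replicate 1 or NS replicate 3) rose, whereas Bdnf (0.46), Gdnf (0.31) and Lifr (-0.51) were not differentially expressed. The member that fell was Nxnl1, which photoreceptors express and which encodes a rod-derived cone viability factor. It went from 412.9, 411.4 and 417 CPM to 76.04, 72.36 and 60.41 CPM, or 16.8% of WT (-2.57, SE 0.08, adjusted p = 4.87e-10).

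Genes of microglia and macrophages, the phagocytes of the retina, showed the largest relative rise of the sums compared in the plot of summed expression apart from MHC class II. All 22 members of the microglia and macrophage list tested rose (median 3.71), and they summed to 57.72, 53.47 and 57.47 CPM in WT and to 746.5, 680.9 and 544.5 CPM in NS-treated rd10, or 11.7 times as much. Cd68, a lysosomal protein of phagocytes, rose from 1.149, 1.283 and 1.865 CPM to 32.78, 34.07 and 21.3 CPM (4.37, SE 0.24, adjusted p = 3.66e-07), and Aif1, which encodes IBA1, from 0.3536, 0.1769 and 0.1963 CPM to 3.516, 3.464 and 3.438 CPM (3.80, adjusted p = 5.92e-07). The groups were well apart for both. Fcrls, a scavenger-like receptor of microglia, rose by 4.47.

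Of 15 genes of resting, or homeostatic, microglia 12 rose, with a median of 1.3 and a summed expression of 98.2, 96.41 and 96.29 CPM in WT and 386.6, 350.4 and 319.6 CPM in NS-treated rd10. P2ry12, the purinergic receptor of resting microglia, went from 3.668, 3.715 and 2.748 CPM to 8.94, 6.736 and 8.26 CPM (1.24, adjusted p = 5.79e-05) and Cx3cr1, the fractalkine receptor, from 4.685, 5.572 and 4.27 CPM to 12.99, 10.59 and 6.965 CPM (1.08, adjusted p = 0.00132), a value that was 0.85 without NS replicate 1 and just under 1 without WT replicate 3. Csf1r, the receptor that microglia need to survive, rose by 2.44 and Tmem119 by 1.49.

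Genes named for disease-associated microglia rose in 15 of 19 cases (median 2.10). Apoe, the lipid carrier that Müller glia also make, rose from 455.7, 485.1 and 466.4 CPM to 2282, 1771 and 1999 CPM (2.10, SE 0.09, adjusted p = 3.32e-09). Trem2, a lipid-sensing receptor, rose by 3.27 and Spp1, osteopontin, by 2.44. Cst7, a cystatin, had counts of 2, 1 and 1 in the WT libraries against 210, 124 and 112 in NS-treated rd10, at least 43.6-fold higher against the floor of 3 counts per library. Itgax, the integrin CD11c, had counts of 0, 2 and 3 in WT against 142, 118 and 76 in NS-treated rd10, at least 33.5-fold higher.

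Markers of blood-derived cells were scarce and varied between libraries. Of the infiltrating monocyte and neutrophil list, 6 of 16 genes were expressed enough to be tested, 5 of them rose, and the median of 4.90 was 2.95 with the genes at the floor set to their bound. Of these 6 genes 4 were at the floor in WT and were tested only because of their level in NS-treated rd10. For such genes a rise was nearly fixed by the filter, so this count does not describe the list as a whole. Ly6c2, a marker of inflammatory monocytes, had counts of 0, 2 and 0 in WT against 224, 47 and 33 in NS-treated rd10, at least 27.2-fold higher, or at least 13.6-fold without NS replicate 1. Ccr2, the receptor that draws monocytes into tissue, had counts of 1, 1 and 0 in WT against 55, 25 and 15 in NS-treated rd10, at least 9.0-fold higher. NS replicate 1 was the highest for both. The neutrophil genes S100a8 (0, 7 and 6 counts) and S100a9 (9, 2 and 5 counts) were near 0 in NS-treated rd10, and Ngp, Camp and Ltf had no count in any of the 6 libraries. Of 15 lymphocyte genes, Cd8a was tested and rose (28, 13 and 17 counts to 55, 49 and 46 counts, 1.23, adjusted p = 0.00392, or 0.99 without WT replicate 2), while Cd3e had 8, 0 and 9 counts in NS-treated rd10 and none in WT.

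Of 20 complement genes 17 rose, 3 were not differentially expressed and none fell, with a median of 3.44, or 3.25 with genes at the floor set to their bound. C1qa, a chain of the recognition molecule C1q that microglia make, rose from 6.232, 6.589 and 4.711 CPM to 71.79, 70.39 and 62.78 CPM (3.54, SE 0.11, adjusted p = 5.36e-10). C3, the central component, rose from 4.331, 4.024 and 3.926 CPM to 114.2, 128.4 and 73 CPM (4.68, SE 0.28, adjusted p = 3.53e-05). C4b rose 19.9-fold (4.32), although 34.6% of its 50-base stretches are shared with C4a. The inhibitors Serping1 (4.12) and Clu (1.61) rose too. The members that were not differentially expressed were the membrane inhibitors Cd55 (0.75) and Cd59a (-0.28) and the activator properdin, Cfp (-0.32).

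Of 16 MHC class I genes 13 rose (median 2.94), and they summed to 230.5, 239.6 and 240.6 CPM in WT and 1324, 1237 and 1007 CPM in NS-treated rd10. B2m, the invariant light chain, rose from 21.08, 23.84 and 20.86 CPM to 370, 302.3 and 255.6 CPM (3.82, SE 0.14, adjusted p = 1.42e-07), and the heavy chain H2-K1 rose 10.8-fold (3.44). Of 7 MHC class II genes tested 6 rose (median 3.48), with a sum of 6.187, 4.732 and 5.055 CPM in WT and 76.81, 72.03 and 46.52 CPM in NS-treated rd10. Cd74, the invariant chain of class II, went from 0.3536, 0.2211 and 0.3926 CPM to 26.79, 24.63 and 13.17 CPM, a 66.8-fold rise (6.05, SE 0.41, adjusted p = 6.57e-06), and the class II chain H2-Aa rose by 5.11. Ciita, the activator of class II transcription, had a log2 fold change of 0.52 (adjusted p = 0.332).

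Interferon-stimulated genes rose in 36 of 37 cases (median 3.35), the exception being Stat2 (0.84). Their sum was 271.6, 256 and 248.2 CPM in WT and 1940, 1282 and 1143 CPM in NS-treated rd10, highest in NS replicate 1. Irf7, the factor that amplifies the interferon response, rose from 11.27, 12.52 and 11.44 CPM to 103.7, 59.23 and 64.92 CPM (2.70, adjusted p = 0.000281), and Rsad2, the antiviral enzyme viperin, from 1.061, 0.3538 and 1.178 CPM to 31.31, 23.67 and 18.26 CPM (4.83, adjusted p = 1.11e-05). Without NS replicate 1 the median of the interferon-stimulated list was 3.06 and 36 members rose.

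**Figure D3:**
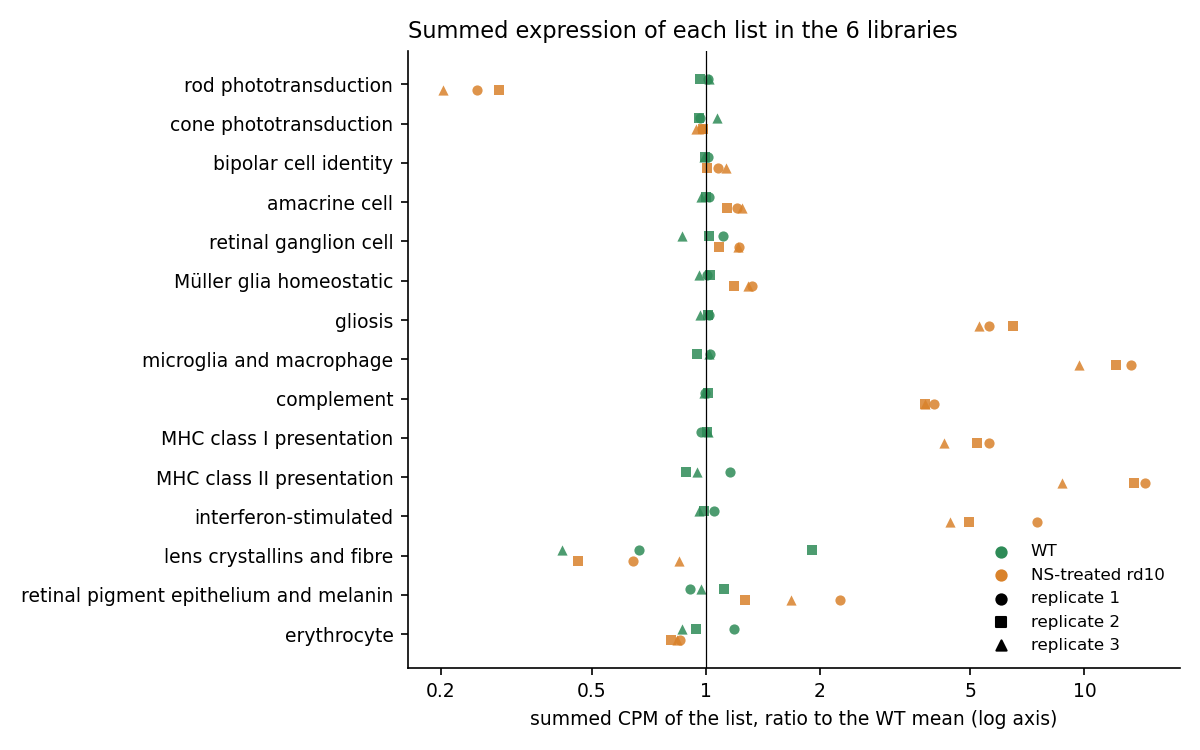
Summed CPM of 15 gene lists in each of the 6 libraries as a ratio to the WT mean, on a log axis, with colour for the group and marker shape for the replicate number. The rod sum lies at 0.246 of WT and the microglia and macrophage sum at 11.7 times WT, whereas lens crystallins scatter by WT replicate 2 and pigment epithelium genes by NS replicate 1.

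Of 18 chemokine genes tested 11 rose and none fell (median 1.43). At the floor in WT were 5 of the 18, which were tested only because of their level in NS-treated rd10. Ccl2, which attracts monocytes, had counts of 0, 1 and 0 in WT against 66, 41 and 17 in NS-treated rd10, at least 12-fold higher, and Ccl5, which attracts T cells among others, 3, 2 and 2 in WT against 95, 52 and 42 in NS-treated rd10, at least 18.3-fold higher. Cxcl10, an interferon-induced chemokine, rose from 8, 7 and 9 counts to 214, 202 and 113 counts (4.30, adjusted p = 2.74e-07). Cxcl12 was lower but not differentially expressed (-0.78). Of 16 tested Fc receptor and ITAM signalling genes 15 rose (median 2.93), Sirpa, a receptor that neurons express strongly, being the exception. Of 20 tested Toll-like receptor and inflammasome genes 15 rose (median 2.67), among them Tlr2 (3.86), Tlr7 (4.01) and Casp1 (3.93, or 4.68 without WT replicate 2), the protease that matures interleukin 1β. Il1b itself was scarce, with counts of 0, 1 and 2 in WT against 45, 16 and 26 in NS-treated rd10, at least 8.33-fold higher.

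Of 19 tested members of a list of NF-kB subunits, inhibitors and kinases 5 rose and 1 fell (median 0.31), where 9.16% of all genes tested rose and 3.56% fell. In the KEGG NF-kappa B signaling pathway, which also holds receptors and targets, 32 of 87 genes rose (36.8%) and 3 fell. Nfkb2 (2.18) and Relb (1.89), the subunits of its non-canonical arm, rose, and so did Bcl3 (4.13), Nfkbiz (1.54) and Ikbke (2.13), while Rela (0.31) and the inhibitor Nfkbia (0.33) were not differentially expressed. Tnfaip3, which encodes the ubiquitin-editing inhibitor A20, was the member that fell. It went from 399.3, 359.4 and 372.6 CPM to 75.91, 72.89 and 62.6 CPM, or 18.7% of WT (-2.42, SE 0.08, adjusted p = 5.62e-10), and its WT and NS-treated libraries were far apart.

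Of 11 death receptor and necroptosis genes tested 5 rose (median 0.94), namely the receptors Fas (2.16), Tnfrsf1a (2.50), Tnfrsf1b (3.41) and Tnfrsf12a (3.02) and the initiator Casp8 (2.27). The necroptosis genes Ripk3 (0, 2 and 2 counts in WT, 12, 14 and 8 in NS-treated rd10) and Mlkl (2, 0 and 1 counts in WT, 30, 19 and 9 in NS-treated rd10) were too low to be tested. Of 25 mitochondrial apoptosis genes 4 rose and 1 fell (median 0.20), where 9.16% of all genes tested rose and 3.56% fell. Cdkn1a, the cell cycle inhibitor p21, rose from 5.922, 6.855 and 6.969 CPM to 37.94, 44.27 and 37.82 CPM (2.60, adjusted p = 2.15e-09), and Bid (1.08, or 0.95 without NS replicate 2), Pmaip1 (1.84) and Bcl2a1b (4.55, or 5.31 without WT replicate 2, with 79.2% of its stretches shared with Bcl2a1d) also rose. Xiap, an inhibitor of caspases, fell from 560.4, 562.8 and 562.4 CPM to 281.3, 280.1 and 274.4 CPM (-1.01, SE 0.05, adjusted p = 1.34e-08). The pore former Bax (0.20) was under the fold threshold, and of 15 calpain, PARP and cGMP kinase genes (median 0.05) Capn3 rose (2.29, or 2.97 without WT replicate 1), where 9.16% of all genes tested rose.

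Of 24 AP-1 and immediate-early genes 11 rose (median 0.89), including Fosl2 (2.52), Nr4a3 (1.46) and Atf3 (1.26), while Fos (0.56) and Egr1 (0.38) did not pass. Fosl1, a partner of JUN proteins, was at the floor in WT and its level in NS-treated rd10 was at least 42.1-fold higher. However, 57.2% of its exonic bases overlap Ccdc85b on the other strand, and the counting is not stated to use strand. None of 22 genes of the unfolded protein and integrated stress response was differentially expressed (median 0.13), where 12.7% of all genes tested were. Atf4 was at -0.64 and its target Ddit3 at 0.04. Of 18 heat shock genes 3 rose and 2 fell (median 0.14), where 9.16% of all genes tested rose and 3.56% fell. Bag3, a co-chaperone of protein clearance, rose from 7.911, 8.58 and 7.46 CPM to 63.58, 63.08 and 65.37 CPM (3.0, adjusted p = 1.31e-10), and the small heat shock genes Cryab (1.3) and Hspb1 (1.29, with 48.8% of its stretches shared with Hsp25-ps1) rose with it. The inducible chaperones Hspa1a (-1.36) and Hspa1b (-1.26), which share 60.3% and 62.3% of their stretches with near copies, fell.

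Of 16 metallothionein and iron handling genes 6 rose and 10 were not differentially expressed (median 0.58). Mt1, a zinc- and copper-binding metallothionein, rose from 59.04, 50.59 and 57.52 CPM to 588, 640.1 and 750.7 CPM (3.57, adjusted p = 1.26e-09). Mt2 rose 24.2-fold, from 41.63, 37.81 and 38.08 CPM to 873.4, 939.9 and 1025 CPM (4.59, SE 0.08, adjusted p = 2.77e-12), though 73.5% of its exonic bases overlap Gm45774 on the other strand, and the counting is not stated to use strand. Trf, the iron carrier transferrin, rose 8.67-fold from 98.69, 132 and 129.1 CPM to 1106, 997.1 and 1017 CPM (3.12), and 59.4% of its stretches are shared with Gm20425. Cp, the ferroxidase ceruloplasmin, rose 3.52-fold (1.81). Of 26 NRF2 targets and antioxidant genes 9 rose (median 0.45), such as Slc7a11 (1.83), the cystine importer, and Gpx3 (2.61), a secreted glutathione peroxidase that was highest in NS replicate 1 (88.76 CPM against 31.13 and 44.34 CPM).

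Of 28 glycolysis and lactate shuttle genes 4 fell and none rose (median -0.24), where 3.56% of all genes tested fell. Hk2, the hexokinase of photoreceptors, fell from 532.9, 560.9 and 592.9 CPM to 157.7, 164.9 and 119.3 CPM, or 26.2% of WT (-1.93, SE 0.11, adjusted p = 4.54e-07), and Pfkfb2 (-1.38) and the lactate transporter Slc16a1 (-1.11) fell as well, the remaining fall being that of Nxnl1 (-2.57), which stands in both lists, while Ldha (-0.72) and Pkm (-0.66) were lower without passing the fold threshold. None of 50 nuclear genes of oxidative phosphorylation was differentially expressed, where 12.7% of all genes tested were. However, 43 of them had a log2 fold change below 0 (median -0.14). That median was 0.03 in a limma test of log2(FPKM + 1), so its sign depended on the method. None of the 13 mitochondrially encoded genes was differentially expressed either, against the same 12.7% of all genes tested. They summed to 60680, 62870 and 60370 CPM in WT and 69690, 59690 and 64350 CPM in NS-treated rd10 (median 0.13).

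None of 24 sterol biosynthesis genes was differentially expressed, where 12.7% of all genes tested were. However, 21 of them were below 0 (median -0.44), and they summed to 1554, 1549 and 1503 CPM in WT and 1086, 1096 and 1118 CPM in NS-treated rd10, without overlap. Fdps, which makes farnesyl pyrophosphate and has 26.2% of its stretches shared with Gm43738, was at 55.42, 51.61 and 55.51 CPM in WT and 25.11, 32.14 and 30.14 CPM in NS-treated rd10 (-0.90, adjusted p = 3.21e-06). Of 18 cholesterol efflux and apolipoprotein genes 7 rose (median 0.72), including the exporter Abca1 (2.01) and Ch25h (5.26, or 6.77 without WT replicate 1), which makes 25-hydroxycholesterol. Of 19 genes of long-chain and polyunsaturated lipids 4 rose and 3 fell (median 0.21), where 9.16% of all genes tested rose and 3.56% fell. Elovl4, which elongates the very long chains of photoreceptor membranes, fell from 621.4, 615 and 630.8 CPM to 289.8, 282.9 and 237.4 CPM (-1.20), with Agpat3 (-1.48) and Adipor1 (-1.3), whereas Mfsd2a, the transporter that imports docosahexaenoic acid, rose (2.06). Of 34 genes of lysosomes and phagocytic clearance 15 rose and none fell (median 0.79), including Ctss (3.40) and Ctsd (1.67, with 32.4% of its stretches shared with Gm49369).

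Of 28 collagen genes 19 rose and 2 fell (median 1.26). The 2 that fell, Col4a3 (-1.40) and Col4a4 (-1.16), and the pair Col4a5 (2.30) and Col4a6 (2.60), which rose, all encode chains of basement membrane collagen IV. Of 25 matrix proteases, inhibitors and lysyl oxidases 16 rose (median 1.60), among them Timp1 (5.68, or 6.88 without WT replicate 2) and Plaur (5.03, or 5.62 without WT replicate 3). In the list for the TGF-beta and EGF families 11 of 26 genes rose (median 0.94), among them Tgfb1 (2.37). The largest value of that list was that of Tgfbi (4.83), a TGF-beta-induced gene that is not itself a family member. Of 25 endothelial and pericyte genes 3 rose and 1 fell (median 0.53), near the shares of 9.16% and 3.56% over all genes tested. The leukocyte adhesion molecules Icam1 (3.92, adjusted p = 3.02e-08) and Vcam1 (1.89) and the endothelial Plvap (1.09) rose, while the vessel identity genes Pecam1 (0.55) and Cdh5 (0.44) did not pass the threshold. Vtn, listed for pericytes, which make vitronectin, but also expressed by photoreceptors, fell from 857.7, 830.2 and 924.5 CPM to 268.3, 287.5 and 224.1 CPM (-1.74, adjusted p = 2.3e-08).

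Of 23 cell cycle genes tested 7 rose (median 0.50), where 9.16% of all genes tested rose, and 2 of the 23 were at the floor in WT. Mki67, a marker of cycling cells, had counts of 1, 2 and 1 in WT against 99, 90 and 29 in NS-treated rd10, at least 21.7-fold higher, and Top2a, the topoisomerase of dividing cells, 2, 3 and 0 in WT against 82, 50 and 27 in NS-treated rd10, at least 15.4-fold higher. Ccnd2, a D-type cyclin, rose by 1.62. Of 20 circadian clock genes Bhlhe40 alone passed the thresholds, with a log2 fold change of 1.04 (median of the list 0.06, where 9.16% of all genes tested rose), and without NS replicate 2 or NS replicate 3 none did.

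The largest rises among well expressed genes were led by Cd74, Timp1, Csf2rb (5.50, with 12.3% of its stretches shared with Csf2rb2), a receptor of myeloid growth factors, Lcn2, Lyz2 (5.34, with 15.4% shared with Lyz1), the lysozyme of macrophages, Serpina3n, H2-Aa, Fgl2 (5.07) and Clec7a (4.97), the receptor dectin 1. The order of the first 3 rested on few counts in WT: Timp1 had 2, 13 and 3 and Csf2rb 9, 4 and 2. Without WT replicate 2 Timp1 (6.88) stood above Cd74 (5.84), and without WT replicate 1 Csf2rb (6.19) stood above Cd74 (6.13). Gpnmb, a glycoprotein of lipid-laden phagocytes and pigment cells, rose from 5.259, 7.474 and 6.822 CPM to 231.3, 163.3 and 129.4 CPM (4.75). By difference in level rather than by fold, Apoe gained the most, 1548 CPM, followed by Clu (1233 CPM), Trf (920.1 CPM), Mt2 (907.1 CPM), Ctsd (829.5 CPM), Mt1 (603.9 CPM), Sparc (495.5 CPM), Serpina3n (451.9 CPM), Cp (410.3 CPM) and B2m (287.4 CPM).

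The largest falls by fold included genes outside the rod list. Glb1l3, a galactosidase-like gene, retained 2.8% of its WT level (-5.21). Hdc, the enzyme that makes histamine, fell from 12.77, 14.42 and 13.69 CPM to 0.971, 1.443 and 0.3125 CPM (-3.91, SE 0.29, adjusted p = 1.64e-06). Pdzph1 fell from 269.1, 248 and 270.3 CPM to 20.86, 23.14 and 18.35 CPM, or 7.92% of WT (-3.66, SE 0.08, adjusted p = 3.73e-11). Kcnj14, an inward rectifier potassium channel, fell from 720.1, 690 and 723.7 CPM to 101, 85.35 and 73.05 CPM (-3.04, SE 0.10, adjusted p = 5.75e-09), with 30.8% of its stretches shared with Gm5522. In each of these genes the residue was below that of Guca1b (17.1%). By difference in level rod genes had the largest falls, among them Gnat1 (-11720 CPM), Gnb1 (-4346 CPM), Prph2 (-3829 CPM) and Rbp3 (-3540 CPM).

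**Figure D4:**
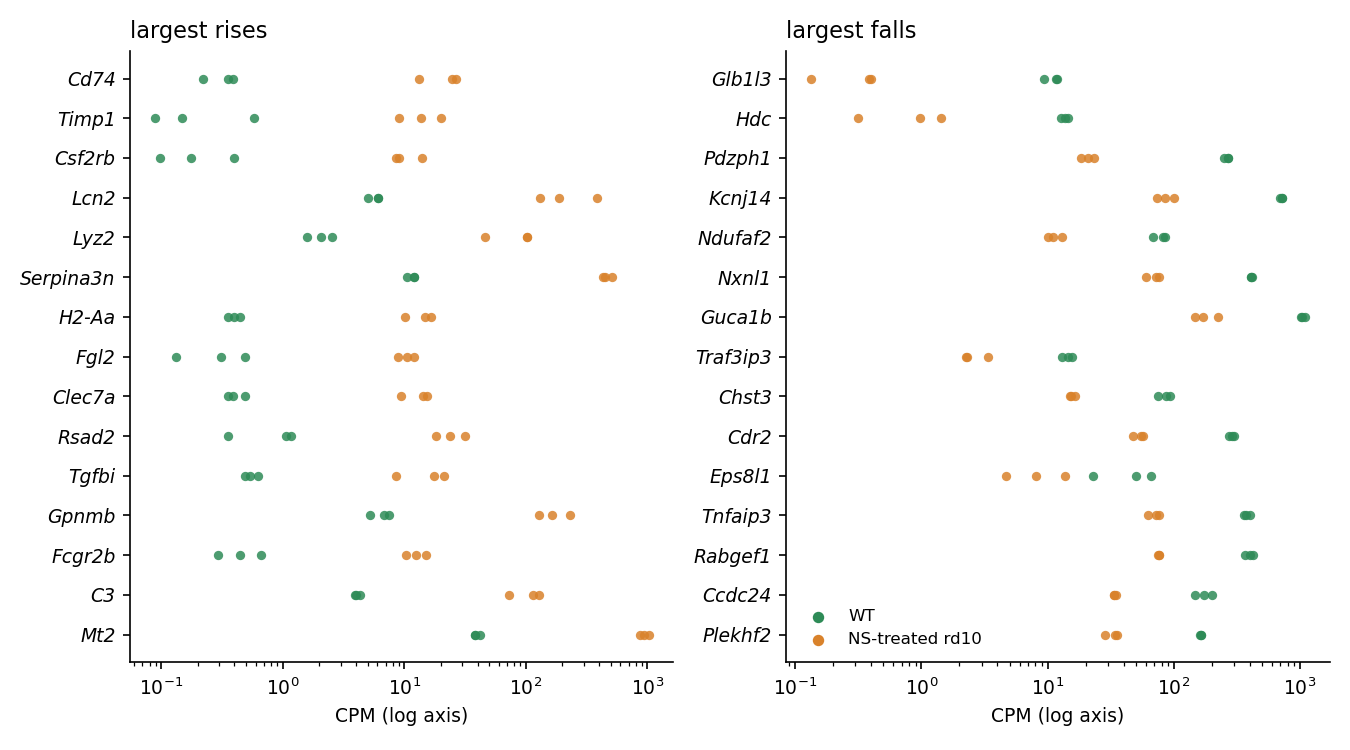
CPM in each of the 6 libraries, on a log axis, of the 15 largest rises (left) and the 15 largest falls (right) by log2 fold change, among differentially expressed genes with at least 10 CPM in the higher group whose groups do not overlap. Rising genes include Cd74, Lcn2 and Serpina3n, and falling genes include Glb1l3, Hdc, Pdzph1 and Kcnj14.

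The deposited annotation assigned KEGG pathways to 6099 of the genes tested, and 300 pathways held at least 20 of them. In 176 pathways the share of rising members was above the 9.16% of all genes tested, and in 86 the share of falling members was above 3.56%. The pathway Phototransduction stood apart on the falling side, with 18 of 23 members lower (78.3%, median -1.64). Among the others, 6 of 45 members of the Fanconi anemia pathway fell (13.3%, median -0.46). On the rising side, 18 of 20 members of graft-versus-host disease (90%), 31 of 44 of complement and coagulation cascades (70.5%), 22 of 49 of antigen processing and presentation (44.9%), 31 of 75 of ECM-receptor interaction (41.3%) and 49 of 125 of phagosome (39.2%) were higher. Falling members of these numbered 2 in complement and coagulation cascades (4.55%), 3 in antigen processing and presentation (6.12%), 3 in ECM-receptor interaction and 1 in phagosome. In retinol metabolism 8 members rose and 3 fell of 24. Oxidative phosphorylation held 1 rising and no falling gene among 108. Pathways share members, so these shares are not independent of each other.

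**Figure D5:**
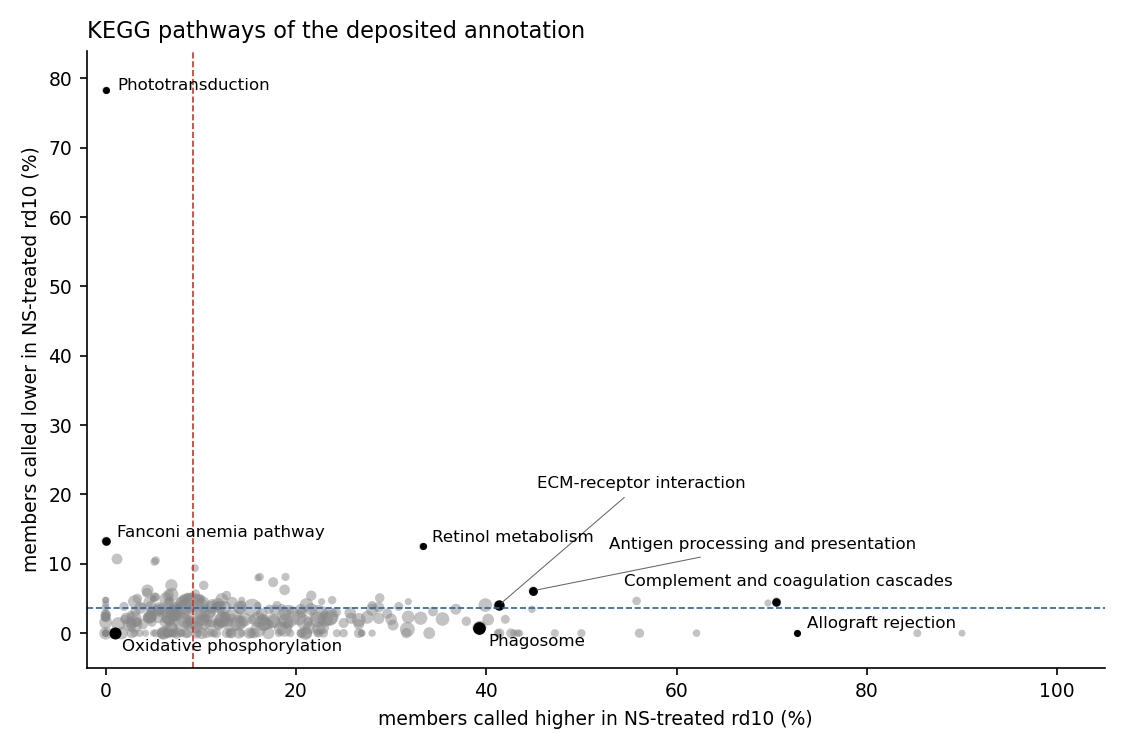
Each point is a KEGG pathway with at least 20 genes tested, placed by the percent of its members that were higher (horizontal axis) and lower (vertical axis) in NS-treated rd10, with point size for the number of genes and dashed lines at the shares over all genes tested, 9.16% and 3.56%. Phototransduction is alone at the top left with 78.3% lower, while complement (70.5%), antigen presentation (44.9%), ECM-receptor (41.3%) and phagosome (39.2%) pathways lie to the right with 1 to 3 members lower each.

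Genes of tissues next to the retina were compared in the same libraries, since dissection can carry them along. Of 19 pigment epithelium and melanin genes 6 rose (median 1.15), with a sum of 278.7, 341.7 and 297.9 CPM in WT and 692, 389.3 and 513.6 CPM in NS-treated rd10. Dct, a melanin enzyme, was at 5.127, 8.358 and 10.26 CPM in WT and at 64.96, 16.7 and 41.75 CPM in NS-treated rd10 (2.40, SE 0.64, adjusted p = 0.031), and Tyr (1.97) and Tyrp1 (2.11) rose too, but these calls were lost without single libraries: the adjusted p of edgeR reached 0.0977 for Dct, 0.0769 for Tyr and 0.13 for Tyrp1. Rpe65, the isomerase that defines the pigment epithelium, was at 5.922, 11.5 and 7.362 CPM in WT and at 19.42, 3.272 and 13.57 CPM in NS-treated rd10 (0.57, adjusted p = 0.524), with overlapping groups. The count of rising members was 3 without NS replicate 1, 13 without NS replicate 2, 4 without NS replicate 3, 2 without WT replicate 1, 4 without WT replicate 2 and 3 without WT replicate 3.

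In the lens list 1 of 19 members rose, where 9.16% of all genes tested rose. The median of the list was -0.58, or 0.29 without WT replicate 2. The lens genes summed to 92.77, 266.1 and 58.11 CPM in WT and 89.2, 63.85 and 118.5 CPM in NS-treated rd10. Of 12 fibroblast and meninges genes 8 rose, such as Fmod (2.97), with a median of 1.45, or 1.19 without NS replicate 1, and the sum went from 120.5, 141.4 and 137.6 CPM to 378.5, 232.8 and 304.1 CPM. Of 6 tested genes of cornea, conjunctiva and ciliary epithelium 2 rose and 2 fell (median 0.63). Among 4 muscle genes 1 fell (median -0.33), and among 5 erythrocyte genes none passed (median -0.32). Over all genes tested 9.16% rose and 3.56% fell, and these lists are short. None of the 4 listed Y-linked genes was expressed enough to be tested. Their sum was 0.31, 0.49 and 0.49 CPM in WT and 0.23, 0.48 and 0.36 CPM in NS-treated rd10. Outside that list, 2 genes of the Y chromosome were tested and 1 of them fell. The pigment epithelium and fibroblast sums were higher in NS-treated rd10 along with the collagen sum, which was 731.3, 766.1 and 702.5 CPM there. The part of these tissues in the rise of matrix genes was not tested.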

How the data were processed

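mRNA of P28 mouse retina was captured with oligo(dT) and read on an Illumina sequencer, with 3 WT and 3 NS-treated rd10 libraries compared here. For every gene the deposited table gives an estimated count per library, which the authors left unscaled. It also gives FPKM, which the authors had already normalized to length and depth. The submitters' processing notes list fastp, HISAT2, StringTie 1.3.1, Bowtie2 and RSEM. The role of each tool, the genome build and the annotation are not given in the sources used here, and neither is a kit that marks strand. Of the 22337 identifiers, 22283 were found in GENCODE M21 (GRCm38), which gave positions, and 54 were not. Columns were assigned by name, and 0 columns of per-sample values were left unused.

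Estimated counts were rounded to whole numbers and tested with edgeR 4.0.16 in R 4.3.3 (filterByExpr, TMM, glmQLFit with robust estimation, glmQLFTest) on the 6 libraries. Of all listed genes, 7693 were too low to be tested, of which 4357 had no count. The SE is the absolute log2 fold change divided by the square root of F. CPM were scaled by TMM factors (0.937 to 0.9437 in WT and 1.047 to 1.079 in NS-treated rd10). The common biological coefficient of variation was 7.97%. A gene that never exceeded 3 counts in a group lay at the floor there, and its fold is given as a bound against 3 counts per library, which covers counting error only. Where such a gene was tested, it passed the filter through the other group alone.

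The 60 gene lists (1204 entries) and their members were chosen with earlier results of these data known, and are described by counts and medians without a set test. Members of the lists could be named. Beyond them, among differentially expressed genes without overlap and with at least 10 CPM in the higher group, the 15 largest rises and falls by fold and the 10 by CPM difference were named, without predicted genes. Promoter windows are from RefSeq, GRCm38.p6. Shared sequence is the percent of 50-base stretches of a gene's transcripts found in another gene.

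Alternatives were DESeq2 1.42.0, limma 3.58.1 on log2 FPKM with 2 pseudocounts, other scalings and filters, other thresholds, all 9 libraries in the fit, a replicate block and leaving out each library. The scripts were tested on simulated data. Some genes that the lists or this rule cover are not reported here.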

Additional observations from a re-analysis of the deposited data

How the results depend on the processing

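Of 1863 differentially expressed genes (1341 higher, 522 lower), none was differentially expressed in the opposite direction under any alternative. Limma on log2(FPKM + 1) gave 988 genes (800 higher, 188 lower), and on log2(FPKM + 0.1) with an FPKM of at least 1 in 3 libraries 1426 (1159 higher, 267 lower). Scaling on inner retinal genes gave 1988 (1055 higher, 933 lower). With the adjusted p alone 8972 genes passed (4562 higher, 4410 lower), and with a fold threshold of 2 on the log2 scale, 639 (579 higher, 60 lower). Without one library at a time there were 1883 to 1964 genes, 1351 to 1419 higher and 476 to 569 lower. Other settings stayed within 1.5 times: DESeq2 size factors 1865, upper-quartile scaling 1869 (1395 higher, 474 lower), no filter 2136, at least 10 counts in every library 1384, the DESeq2 Wald test 1820 and all 9 libraries 1949. The replicate numbers did not pair the libraries, as same-numbered libraries correlated at 0.09, -0.08 and -0.05 in their deviations from the group means, and WT replicate 3 correlated best with NS replicate 2 (0.154). With a replicate block 1861 genes passed (1334 higher, 527 lower), of which 1843 were shared.

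For Pde6b and the genes named by fold or CPM difference, 49 genes and 774 values, 765 kept their direction and side of the threshold, 9 fell short of it and 0 reversed. Sag and Rbp3 missed the fold threshold in both limma fits (-0.99 and -0.94 with a pseudocount of 1), Rbp3 also without NS replicate 3 (-0.99), and Eps8l1 lost its adjusted p without WT replicate 2 (0.0763), WT replicate 3 (0.0748), NS replicate 1 (0.0795) or NS replicate 2 (0.086). The causes were not tested. Scaling on inner retinal genes turned the medians of the mitochondrial apoptosis (-0.03), calpain (-0.19), unfolded protein (-0.11), heat shock (-0.10), mitochondrially encoded (-0.11), long-chain lipid (-0.02) and circadian (-0.18) lists. Without one library, rising members numbered 6 to 8 for death receptors and 1 to 4 for lymphocytes. Of 401 differentially expressed list members, without one library at a time 32 lost the call, 28 moved by over 1.5 times and 0 reversed; under the other alternatives list members were recomputed as counts and medians of the list. The cone sum without Gnb3 and the bound of Ly6c2 without NS replicate 1 were added after seeing the data. With matches counted only in the 150 bases before the start, 3.6% of windows held CRX/OTX, 4.24% AP-1, 6.85% PU.1 and 53.5% the loose CC and GG pattern.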

Other observations

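Among the largest falls by fold were Ndufaf2 (78.88 ± 9.06 CPM in WT and 11.37 ± 1.46 CPM in NS-treated rd10, -2.78, or -1.59 with limma on log2(FPKM + 1)), an assembly factor of mitochondrial complex I whose exons overlap B230220B15Rik on the other strand over 65.6% of their bases, Traf3ip3 (-2.44), the chondroitin sulfotransferase Chst3 (-2.44), Cdr2 (-2.43), Eps8l1 (-2.42), the endosomal exchange factor Rabgef1 (-2.39), Ccdc24 (-2.34, with 35.2% of its 50-base stretches shared with B4galt2) and Plekhf2 (-2.31). Rabgef1 went from 368.6, 398.2 and 427.2 CPM to 76.44, 76.36 and 74.48 CPM (SE 0.06, adjusted p = 1.46e-10 in edgeR), whereas Eps8l1 varied widely within each group (22.8, 50.42 and 66.5 CPM to 4.654, 8.083 and 13.71 CPM, SE 0.62, adjusted p = 0.0271).

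Of the KEGG pathways, cytokine-cytokine receptor interaction had 59 of 148 members higher and 6 lower, Jak-STAT signaling 36 of 106 higher and none lower, and Toll-like receptor signaling 24 of 76 higher and none lower. In each the share of higher members was above the 9.16% over all genes tested. Olfactory transduction had 9 of 84 members lower (10.7%) and homologous recombination 4 of 39 (10.3%), where 3.56% of all genes tested were lower. Glutamatergic synapse had 5 of 114 members higher (4.39%) and 7 lower (6.14%). Axon guidance (6.82% higher, 0.568% lower) and ribosome (0 of 128 genes, median log2 fold change -0.06) were below both shares over all genes tested.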
